A study of Homo sapiens with 6 samples.

Results

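The homeobox genes outside the HOX clusters were examined in WM164 melanoma cells. They were taken by symbol, as every protein-coding row whose symbol starts with EMX, DLX, MSX, LHX, IRX, MEIS, PBX, PITX, OTX, ALX, PRRX, POU or NKX followed by a digit, or, for the sine oculis family, whose symbol is formed like SIX4. This gave 78 genes in 14 symbol families, out of 60504 rows in the table, of which 19664 are protein-coding, and 72 of the 78 are described. The symbol rule also takes POU2AF1, which encodes a coactivator of POU proteins and is not itself a homeobox gene.

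RNA-seq was performed on WM164, an established human melanoma cell line, and all 6 libraries carry the same BRAFV600E genotype. The EV group has 3 libraries from cells given an empty expression vector, and the HDAC8 group has 3 libraries from cells given an expression vector for HDAC8, a class I histone deacetylase. The comparison asks which genes differ once HDAC8 has been introduced. The vectors were transfected as plasmids and the cells were kept in hygromycin, and whether each line is a pool or 1 clone is not given in the sources used here. The labels number the replicates but do not name separate cultures, so the p-values measure the spread between these libraries, which may be technical.

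Homeobox genes encode transcription factors that bind DNA through a homeodomain, many of them at short AT-rich sites with the core TAAT. Families differ in a second domain or a partner: POU proteins carry an additional POU-specific domain, LHX proteins carry LIM domains that recruit LDB cofactors, PBX and MEIS belong to the TALE class whose members bind DNA together and with HOX proteins, and the sine oculis proteins work with EYA coactivators. They set cell identity in the embryo, and several, such as MSX1, MSX2 and DLX5, act in the neural crest. Melanocytes arise from the neural crest.

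Total expected counts per library ran from 34741083 to 42041462 and overlapped between the groups. The homeobox genes took 0.05002% to 0.0540% of all counts in EV and 0.0557% to 0.0626% in HDAC8. These totals include mitochondrial transcripts, whose own share was lower in HDAC8 (given below). The difference in homeobox share therefore depends in part on the total used, and no direction is read from it. The HDAC8 transcript itself was at 422.3 ± 49.96 (SD, n = 3) normalized counts in EV and 468.0 ± 20.3 (SD, n = 3) in HDAC8 (log2 fold change 0.15, SE 0.28, DESeq2 adjusted p = 0.856). The labels could therefore not be checked by it, and directions given here compare libraries labelled HDAC8 with libraries labelled EV. The 7 melanocytic markers summed to between 243744 and 327505 normalized counts in EV and between 136368 and 181340 in HDAC8. PMEL held most of this, with means of 200032 in EV and 110587 in HDAC8. MLANA (log2 fold change -4.84), TYR (-1.60), DCT (-1.08) and PMEL (-0.86) were lower in HDAC8 at a DESeq2 adjusted p under 0.05. MITF (-0.20), SOX10 (-0.33) and TYRP1 (-2.76) did not reach that adjusted p. MITF and SOX10 were present in every library and TYRP1 was at 0 in HDAC8 replicates 1 and 2. Mitochondrial transcripts took 9.66% to 12.8% of the counts in EV and 4.46% to 7.94% in HDAC8. The 3 immune markers summed to between 2286 and 3302 in EV and between 4273 and 6165 in HDAC8. Nearly all of this was CD68, at 2751 ± 514 in EV and 5219 ± 968 in HDAC8 (SD, n = 3) (DESeq2 adjusted p = 3.13e-05). PTPRC did not exceed 3 counts in any of the 6 libraries. CD3E was at 0 in EV and at 78.7, 91.1 and 50.1 normalized counts in HDAC8. The fibroblast list summed to between 2366 and 2869 in EV and between 1150 and 2188 in HDAC8, with DCN at 0 throughout. LUM held most of this sum, at 2462 ± 234 in EV and 1629 ± 553 in HDAC8 (SD, n = 3). The epithelial list did not exceed 86.7 and the endothelial list 218.0 in any library, with EPCAM and CDH5 at 0 throughout. The part of these shifts in the homeobox results was not tested, and in bulk RNA fewer cells of a type and less RNA per cell cannot be told apart.

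To determine how the homeobox genes differed between the groups, the 50 of the 72 with a total of at least 10 counts were read from a DESeq2 fit over all genes. Calls needed a Benjamini-Hochberg adjusted p under 0.05 together with a log2 fold change past 0.58 in either direction. EMX2, PBX3, LHX6 and POU4F1 were called higher in HDAC8 and 0 were called lower. These 4 are 9.09% of the 44 homeobox genes with an adjusted p, and DESeq2 called 11.0% of all 21021 genes with an adjusted p, so the share of calls was near, and slightly under, that of the whole table. By direction, the background was 5.57% called higher and 5.44% called lower. At a DESeq2 unadjusted p under 0.05 with the same fold minimum, 6 of the 50 homeobox genes were higher and 2 lower. Over all 26094 genes with a p-value, 1839 were higher and 1856 lower. Among the 34 homeobox genes averaging at least 50 normalized counts, 4 (11.8%) were called higher and 0 lower, beside 7.38% and 6.64% of all genes at that level. This cut was added after seeing the data. EMX2, at 0 in EV, reached it (mean 59.5) through the HDAC8 libraries alone, so that share is no separate support for a direction. By edgeR and by limma-voom 0 were likewise called lower.

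The median log2 fold change was 0.11 over the 50 homeobox genes and -0.000118 over all genes tested. Setting EMX2 and LHX9, silent in EV, to their lower bounds (37.8-fold and 3.48-fold) could not change the homeobox median, as both stay above it. Without each library in turn, the homeobox median ran from 0.028 (without HDAC8 replicate 2) to 0.23 (without HDAC8 replicate 1). That of all genes ran from -0.065 to 0.043, so the homeobox median depends on single libraries. Of the 50, 27 were positive and 23 negative. Libraries of the groups did not overlap for 9 homeobox genes that were higher in HDAC8 (18.0%) and 4 that were lower (8%), beside 11.3% and 12.7%, or 24.0% in either direction, of all 26162 genes tested. Of the 50 genes, EMX2 and LHX9 were at 0 in all EV libraries and IRX2 in all HDAC8 libraries, so these passed the count filter through 1 group alone. The 30 genes with a mean of at least 50 that were not called had log2 fold changes from -0.79 to 1.498, 15 of them positive. Of the 30, 23 were under 0.58 in size, and 16 had a 95% interval that lay within -1 and 1. The median standard error was 0.35 on the log2 scale at a mean of at least 50 and 2.15 for the 16 genes under it, so differences in the weakly expressed genes were mostly not detectable in these libraries.

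**Figure D1:**
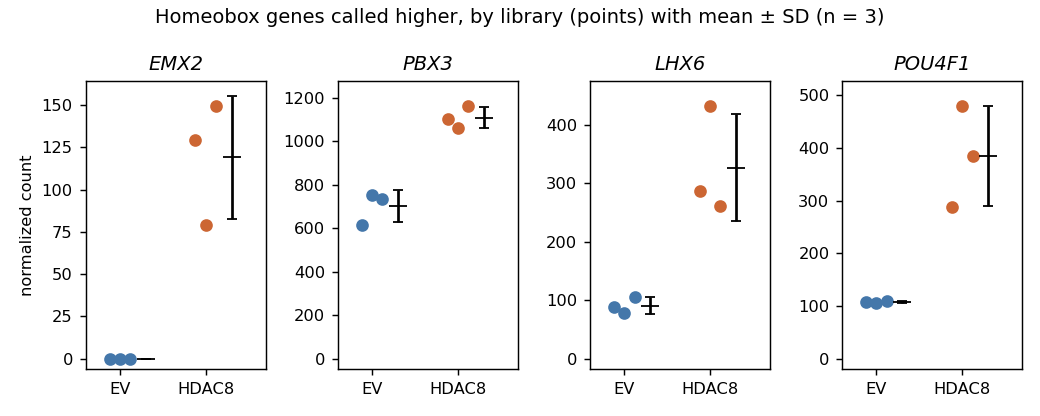
Normalized counts (linear axis, a scale of its own for each gene) of the 4 homeobox genes called higher, with 1 point per library, and the mean ± SD (n = 3) as the bar beside each group. EMX2 was at 0 in every EV library, and no EV library reached the lowest HDAC8 library for any of the 4 genes.

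EMX2, a regulator of forebrain and urogenital development, went from no count to a moderate level. It had 0 counts in all 3 EV libraries, and 129.1, 78.9 and 149.2 normalized counts in HDAC8 replicates 1, 2 and 3. Every HDAC8 library was thus far above every EV library. The HDAC8 mean of 119.1 ± 36.2 (SD, n = 3) was at least 37.8-fold higher than the floor of 3 counts per library (DESeq2 adjusted p = 3.89e-09). It was called in all 13 alternative fits that gave it a value. Per kilobase of exon its level in HDAC8 was 36.5 normalized counts. Its relative EMX1 was at or under 18.8 normalized counts in every library and was not called (DESeq2 adjusted p = 0.796).

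EMX2 (ENSG00000170370) lies at chr10:117542445-117549546 on the plus strand, and the antisense transcript EMX2OS at chr10:117473215-117545068 on the minus strand overlaps its start. EMX2OS was also at 0 in EV, and at 59.9, 25.6 and 41.4 normalized counts in HDAC8, which is at least 13.4-fold higher (DESeq2 adjusted p = 2.32e-04). Replicate 2 was the lowest HDAC8 library for both transcripts. Whether reads were counted by strand is not given in the sources used here, so reads from the overlap cannot be assigned to 1 of them. The promoter window of EMX2, the 250 bases before its RefSeq start, lies wholly within annotated exons of EMX2 and EMX2OS. It holds the homeodomain core TAATTA, shown here because only EMX2 and MSX2 have it among the 51 homeobox genes with a promoter sequence. The 30 bases around it, on the plus strand of GRCh38.p14 from RefSeq at chr10:117542704-117542733, read 5′ to 3′ with the core in capitals:
EMX2: tgatccccgcacTAATTAggctcatgaact

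The TALE class held 1 of the 4 called genes. PBX3, a widely expressed cofactor of HOX proteins, was abundant in both groups. It had 615.5, 750.9 and 732.9 normalized counts in EV and 1100, 1062 and 1160 in HDAC8. The groups did not overlap, with EV replicate 1 the lowest. Its mean went from 699.8 ± 73.5 to 1107 ± 49.3 (SD, n = 3), a 1.58-fold difference (log2 fold change 0.66, SE 0.22, DESeq2 adjusted p = 0.0226). The value stayed between 0.57 and 0.71 in 14 alternative fits, but the call was lost in 5 of them: with the replicate block (adjusted p = 0.0777) and in DESeq2 without EV replicate 1 (0.166), EV replicate 2 (0.0503), EV replicate 3 (0.0850) or HDAC8 replicate 3 (0.137).

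PBX2, the most highly expressed PBX gene per kilobase, had 1317, 1634 and 1370 normalized counts in EV and 1852, 1991 and 1921 in HDAC8. These did not overlap either, yet the log2 fold change of 0.42 was under the minimum and its DESeq2 adjusted p was 0.119, with a 95% interval from 0.06 to 0.77. PBX4 was weaker and variable, at 133.2, 69.1 and 22.7 in EV and 61.6, 46.1 and 29.4 in HDAC8.

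The MEIS proteins, which pair with PBX, gave no call. MEIS2 was at 2840 ± 170 normalized counts in EV and 2726 ± 423 in HDAC8 (SD, n = 3), and the 95% interval of its log2 fold change of -0.06 ran from -0.39 to 0.28. MEIS1 was at 557.2 ± 22.4 and 718.3 ± 200.4, with HDAC8 replicate 2 the highest at 945.3. MEIS3 was at 511.3 ± 63.1 and 486.6 ± 185.7. Some TALE genes from outside the symbol rule were read as partners. Of these, PKNOX1, PKNOX2, TGIF1 and TGIF2 ran from -0.46 to 0.38 in log2 fold change with 0 called, and MKX was at 0 throughout.

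**Figure D2:**
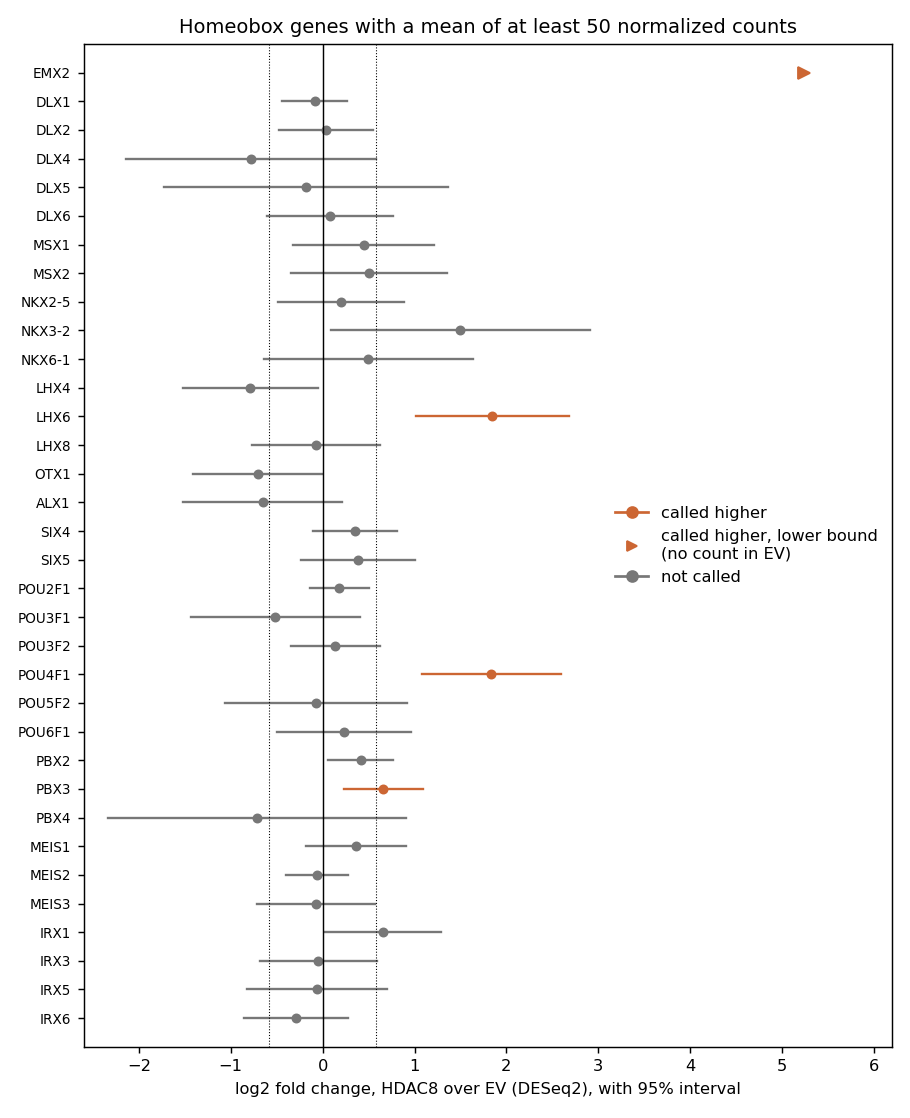
Log2 fold change of HDAC8 over EV from DESeq2, with its 95% interval, for the 34 homeobox genes with a mean of at least 50 normalized counts, ordered by family. Dotted lines mark 0.58 in each direction, the triangle for EMX2 marks the log2 of the lower bound against the floor, and LHX6 and POU4F1 are the called genes with the next largest values at 1.85 and 1.84.

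LHX6 was the LIM homeobox gene called higher. It encodes a regulator of cortical interneurons and of the first branchial arch. Its normalized counts were 89.1, 77.5 and 105.4 in EV and 286.5, 431.2 and 261.3 in HDAC8. The lowest HDAC8 library was above the highest EV library, and HDAC8 replicate 2 was the highest. The mean went from 90.7 ± 14.01 to 326.3 ± 91.7 (SD, n = 3), a 3.60-fold difference (log2 fold change 1.85, SE 0.42, DESeq2 adjusted p = 2.88e-04). It was called in all 14 alternative fits, with log2 fold changes from 1.60 to 1.99, but not when the test was made against the fold minimum itself.

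LHX6 (ENSG00000106852) lies at chr9:122202577-122229626 on the minus strand. Its promoter window, the 250 bases before its RefSeq start, lies inside this GENCODE span and not upstream of it. The window held 27 CpG dinucleotides, more than 82.7% of all promoters in the table. The part of the window outside annotated exons, chr9:122228434-122228656 on the minus strand of GRCh38.p14 from RefSeq, is shown 5′ to 3′ with each CpG in capitals, to let the spacing of CpG be read:
LHX6: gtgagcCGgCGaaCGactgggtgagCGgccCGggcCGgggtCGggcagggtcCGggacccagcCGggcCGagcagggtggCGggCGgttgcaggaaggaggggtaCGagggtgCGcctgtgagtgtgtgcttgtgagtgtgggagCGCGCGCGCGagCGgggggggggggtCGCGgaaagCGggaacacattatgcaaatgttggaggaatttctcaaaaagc

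The remaining LHX genes were not called, and several were barely detected. LHX8, the highest LHX gene per kilobase, was at 279.7 ± 29.6 normalized counts in EV and 265.6 ± 37.4 in HDAC8 (SD, n = 3). LHX4, a pituitary and motor neuron factor, was lower in every HDAC8 library, at 311.4, 311.0 and 392.1 in EV and 250.5, 163.9 and 173.1 in HDAC8, but its log2 fold change of -0.79 (SE 0.37) had a DESeq2 adjusted p of 0.166. LHX9 had no count in EV, and its HDAC8 reads came from replicate 2 (31.7 normalized counts), with 1 read in replicate 3. LHX1 and LHX2 did not exceed 39.4 normalized counts in any library, and LHX3 and LHX5 were at 0.

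Genes of the LIM domain complex were read beside the LHX genes. LMO4, a LIM-only protein that competes with LHX proteins for LDB1, was at 1769, 1911 and 1827 normalized counts in EV and 827.7, 1045 and 732.9 in HDAC8. All HDAC8 libraries were below all EV libraries, and the log2 fold change was -1.08 with an SE of 0.21 (DESeq2 adjusted p = 5.42e-06). LDB1, SSBP2, SSBP3 and SSBP4, which build the complex on LIM proteins, ran from 0.12 to 0.34 in log2 fold change and were not called. LMO1 and LMO3 were tested at low counts without an adjusted p, and LDB2 and LMO2 were too low to test.

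POU4F1 was the POU gene called higher. It encodes BRN3A, a factor of sensory neurons, which derive in part from the neural crest. Its normalized counts were 107.0, 105.5 and 110.3 in EV and 289.0, 479.3 and 385.5 in HDAC8. The EV libraries lay close together and every HDAC8 library was above them. The mean went from 107.6 ± 2.47 to 384.6 ± 95.1 (SD, n = 3), a 3.57-fold difference (log2 fold change 1.84, SE 0.39, DESeq2 adjusted p = 5.57e-05). It was called in 14 of 14 alternative fits, with log2 fold changes from 1.65 to 2.00.

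POU4F1 (ENSG00000152192) lies at chr13:78598362-78603552 on the minus strand. The opposite-strand transcript AL445209.1, picked after its values were seen because it overlaps POU4F1, was at 0 in EV and at 25.7, 25.6 and 18.5 normalized counts in HDAC8. RNF219-AS1, which also overlaps it, had 43.0 in HDAC8 replicate 2 and 0 elsewhere. The deposited expected counts of POU4F1 were whole in EV (102, 113 and 112) and fractional in HDAC8 (337.59, 467.87 and 353.80), so some HDAC8 reads were shared with another gene by the estimate. The 250 bases before its RefSeq start, chr13:78603553-78603802 on the minus strand of GRCh38.p14, lie in no annotated exon and held 37 CpG, more than 96.1% of all promoters. They are shown 5′ to 3′ with each CpG in capitals, for the gene with the most CpG of those called:
POU4F1: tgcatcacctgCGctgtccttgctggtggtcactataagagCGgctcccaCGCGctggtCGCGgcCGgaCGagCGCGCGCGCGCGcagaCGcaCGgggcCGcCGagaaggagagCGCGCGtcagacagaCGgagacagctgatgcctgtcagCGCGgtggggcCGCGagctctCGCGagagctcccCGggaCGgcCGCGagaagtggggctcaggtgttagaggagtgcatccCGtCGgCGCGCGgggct

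Other POU genes were abundant without a call. POU3F2, which encodes the melanoma factor BRN2, had 1628, 1099 and 1249 normalized counts in EV and 1008, 1637 and 1736 in HDAC8. The groups overlapped, and its log2 fold change of 0.14 had a 95% interval from -0.35 to 0.63. POU2F1, the broadly expressed OCT1, was at 3627 ± 188 in EV and 4120 ± 686 in HDAC8 (SD, n = 3). POU5F1, the pluripotency factor OCT4, was at 30.4, 34.6 and 15.8 in EV and 22.2, 102.4 and 67.5 in HDAC8 (log2 fold change 1.25, SE 0.90, DESeq2 adjusted p = 0.452). Reads of POU5F1 can be shared with its near-identical copy POU5F1B, which varied from 0 to 58.8 among HDAC8 libraries, so both are uncertain. POU3F1, POU5F2 and POU6F1 had means from 156.7 to 309.9 in both groups and overlapped, and POU2F2 and POU3F3 did not exceed 44.5 in any library.

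Of the 5 sine oculis genes described, 3 were tested and 0 called, with SIX6 at 3.27 to 36.4 normalized counts. SIX5 was at 412.7 ± 63.8 and 538.5 ± 148.3 normalized counts in EV and HDAC8 (SD, n = 3). SIX4 was at 774.9, 716.3 and 693.5 in EV and 782.4, 1077 and 936.5 in HDAC8, which just did not overlap (log2 fold change 0.36, DESeq2 adjusted p = 0.386). Of their EYA coactivators, EYA4 was lower in HDAC8, at 4937, 3895 and 4716 normalized counts in EV and 2446, 3386 and 3202 in HDAC8, with a log2 fold change at the minimum (-0.58, SE 0.18, DESeq2 adjusted p = 0.0101). The call was lost with total-count size factors (log2 fold change -0.55) and without EV replicate 1 (-0.52), EV replicate 3 (-0.56) or HDAC8 replicate 1 (-0.46). EYA1 and EYA3 differed by -0.17 and -0.11 and were not called.

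The IRX, DLX, MSX and NKX genes gave no call. IRX1, a patterning factor and the highest IRX gene per kilobase over the 6 libraries together, had 398.5, 418.4 and 233.5 normalized counts in EV and 513.0, 540.8 and 601.1 in HDAC8. These did not overlap (log2 fold change 0.66, SE 0.32, DESeq2 adjusted p = 0.184). IRX3, IRX5 and IRX6 overlapped between the groups and had log2 fold changes from -0.29 to -0.05, and IRX2 and IRX4 did not exceed 11.2 normalized counts.

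DLX1 had the highest level per kilobase of the 72 genes over the 6 libraries together, and was not called. It was at 1604, 1633 and 1699 normalized counts in EV and 1416, 1531 and 1699 in HDAC8, with a log2 fold change of -0.09 (95% interval from -0.44 to 0.26). DLX2 and DLX6 differed by 0.04 and 0.08 on the log2 scale, while DLX4 and DLX5, at lower levels, had 95% intervals reaching -2.14 and -1.73. The antisense transcript DLX6-AS1 had 151.0, 107.4 and 107.4 normalized counts in EV and 196.7, 280.6 and 231.9 in HDAC8, which did not overlap (log2 fold change 0.96, SE 0.44, DESeq2 adjusted p = 0.145). MSX1 and MSX2, BMP-responsive neural crest factors, had log2 fold changes of 0.45 (SE 0.39) and 0.50 (SE 0.43).

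NKX3-2, a skeletal patterning repressor, had 40.9, 44.8 and 17.7 normalized counts in EV and 121.4, 92.2 and 78.4 in HDAC8. Every HDAC8 library was above every EV library, but the log2 fold change of 1.498 (SE 0.72) had a DESeq2 adjusted p of 0.171. It was called (adjusted p = 0.0406) when genes needed at least 10 counts in every library. NKX2-4 had 7.34, 17.7 and 9.85 in EV and 10.3, 48.1 and 63.2 in HDAC8 (log2 fold change 1.79, SE 1.15, DESeq2 adjusted p = 0.370). NKX1-2 was lower in each HDAC8 library than in any EV library, at 64.0, 30.8 and 30.5 in EV and 22.2, 13.3 and 19.6 in HDAC8 (log2 fold change -1.18, SE 0.99, DESeq2 adjusted p = 0.551). NKX2-5, the cardiac factor and highest NKX gene per kilobase, was at 358.8 ± 90.9 and 411.0 ± 110.0 (SD, n = 3). NKX6-1 overlapped between the groups, and NKX6-2 did not exceed 13.6.

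The paired-class families were low or not called. OTX1, a forebrain factor, had 275.8, 366.1 and 360.6 normalized counts in EV and 187.3, 208.9 and 217.8 in HDAC8, without overlap (log2 fold change -0.71, SE 0.36, DESeq2 adjusted p = 0.201). ALX4, a craniofacial factor, had 40.9, 22.4 and 27.6 in EV and 18.8, 0 and 1.09 in HDAC8 (log2 fold change -2.18, SE 1.57, DESeq2 adjusted p = 0.455). HDAC8 replicate 1 was its highest HDAC8 library, and without it ALX4 was called lower (DESeq2 adjusted p = 0.0289). ALX1 was at 258.9 ± 81.5 normalized counts in EV and 164.9 ± 46.5 in HDAC8 (SD, n = 3), and PRRX1 did not exceed 15.8 in any library.

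**Figure D3:**
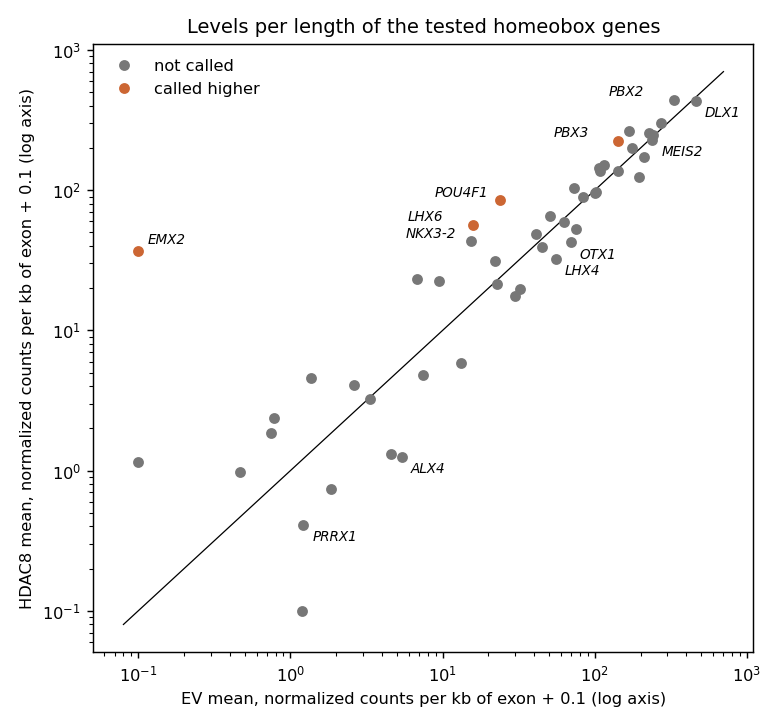
Mean normalized counts per kilobase of exon plus 0.1, in EV (horizontal, log axis) and HDAC8 (vertical, log axis), with 1 point for each of the 50 homeobox genes tested. The diagonal marks equal levels, and EMX2 and the unlabelled LHX9 stand at the left edge because no EV library had a count.

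Levels between genes were compared per kilobase of exon. The highest gene of each family was taken by its mean over the 6 libraries. In normalized counts per kilobase in EV and in HDAC8, these were DLX1 at 461.0 and 433.8, PBX2 at 329.8 and 439.9, POU3F2 at 271.4 and 298.9, MEIS2 at 238.7 and 229.2, ALX1 at 194.3 and 123.8, NKX2-5 at 175.2 and 200.7, and IRX1 at 168.3 and 265.2. The other tops were lower, with SIX5 at 115.2 and 150.3, MSX1 at 106.2 and 144.7, OTX1 at 69.1 and 42.3, LHX8 at 62.6 and 59.4, EMX2 at 0 and 36.5, PRRX1 at 1.12 and 0.311, and PITX1 at 0.543 and 0. Within EV alone IRX6, at 209.6 normalized counts per kilobase, was above IRX1, and EMX1, at 0.683, above EMX2, and within HDAC8 alone PBX2 was above DLX1. Among the other called genes, PBX3 was at 142.7 in EV and 225.8 in HDAC8 normalized counts per kilobase, POU4F1 went from 23.7 to 84.7 and LHX6 from 15.7 to 56.6 normalized counts per kilobase.

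No count was found in any library for 17 of the genes. These were LHX3, LHX5, PITX3, SIX2, SIX3, NKX1-1, NKX2-1, NKX2-2, NKX2-3, NKX2-6, NKX2-8, NKX6-3, POU1F1, POU2F3, POU3F4, POU4F2 and POU4F3. A count of 0 allows up to 3 counts per library, for counting error only. Another 5, DLX3, OTX2, PITX1, PRRX2 and POU2AF1, had from 1 to 7 counts in total, and 6 of the 50 tested had no adjusted p. The POU4F1 paralogs POU4F2 and POU4F3 were thus both undetected.

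Chromosomal position was compared next. Homeobox genes within 1 Mb of each other formed 9 clusters, among them DLX1 with DLX2, 9761 bases apart, DLX6 with DLX5, 9356 bases apart, and 2 clusters of IRX genes. No cluster held a called gene. The 8 nearest tested protein-coding neighbours, 1 on each side of each called gene, held 1 called higher, 0 lower and 7 not called, beside 11.0% called of all genes with an adjusted p. The higher one was EDNRB, the endothelin receptor of the melanocyte lineage, 622833 bases from POU4F1 (log2 fold change 0.85, DESeq2 adjusted p = 7.11e-06). The 7 not called ran from -0.23 to 0.71 in log2 fold change. The highest of them were MVB12B beside PBX3 (0.71, DESeq2 adjusted p = 0.0822) and RNF219, 10737 bases from POU4F1 (0.57, DESeq2 adjusted p = 0.0573).

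Promoter sequence was available from RefSeq for 51 of the 72 genes, among them the 4 called. In the 250 bases before the start, the called genes held from 20 to 37 CpG. The median was 31.5 for the 4 called genes, 23 for the 36 tested, 20 for the 12 without any count, 18 for 14842 promoters of protein-coding genes and 11 for all 27305 promoters. Over the 51 homeobox promoters it was 22, with a range from 3 to 42. NKX1-1, without any count, held 42 and IRX4, not called, held 39, so many CpG did not set the called genes apart. PBX3 (ENSG00000167081, chr9:125747345-125967377, plus strand) held 36 CpG, more than 95.3% of all promoters. Its window also lies inside the GENCODE span of the gene. The exon-free part of its window, chr9:125747933-125748164 on the plus strand of GRCh38.p14, is shown 5′ to 3′ with each CpG in capitals to set it beside LHX6 and POU4F1:
PBX3: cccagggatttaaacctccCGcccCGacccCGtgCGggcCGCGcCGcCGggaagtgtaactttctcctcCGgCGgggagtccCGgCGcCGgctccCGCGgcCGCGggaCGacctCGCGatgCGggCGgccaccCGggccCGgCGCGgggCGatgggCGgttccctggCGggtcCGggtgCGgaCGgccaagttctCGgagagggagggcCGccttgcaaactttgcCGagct

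Motifs were searched by letters in the same windows, all of them reading alike on both strands. TGANTCA, the AP-1 site, was in 5 of the 51 homeobox promoters and in 6.60% of all promoters, or 5.05% of those of protein-coding genes. CACGTG, an E-box of MITF, was in 4 of 51, in 6.49% of all and in 7.89% of the protein-coding ones. TAATTA was in 2 of 51, in 4.49% of all and in 3.10% of the protein-coding ones. Of the 4 called genes, EMX2 held TAATTA and 0 held either other motif, and these letters say nothing of binding.

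Groucho corepressors, recruited by several homeodomain proteins, moved in both directions. TLE1 rose from 1376 ± 75.5 to 2480 ± 108 normalized counts (SD, n = 3) (log2 fold change 0.85, SE 0.17, DESeq2 adjusted p = 1.13e-05). TLE3 rose from 3692 ± 545 to 5952 ± 370 normalized counts in HDAC8 (log2 fold change 0.69, SE 0.16, DESeq2 adjusted p = 2.26e-04). TLE2 fell, from 475.0, 541.7 and 414.7 in EV to 157.3, 211.0 and 140.5 in HDAC8 (log2 fold change -1.49, SE 0.34, DESeq2 adjusted p = 3.18e-04). TLE4 and AES, the short member also named TLE5, differed by 0.05 and -0.27 and were not called. Over the whole partner list, 25 genes were found, 21 tested and 18 given an adjusted p, with 2 called higher and 3 lower beside the 11.0% of all genes, and the median log2 fold change was -0.19 beside -0.000118 over all genes.

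**Figure D4:**
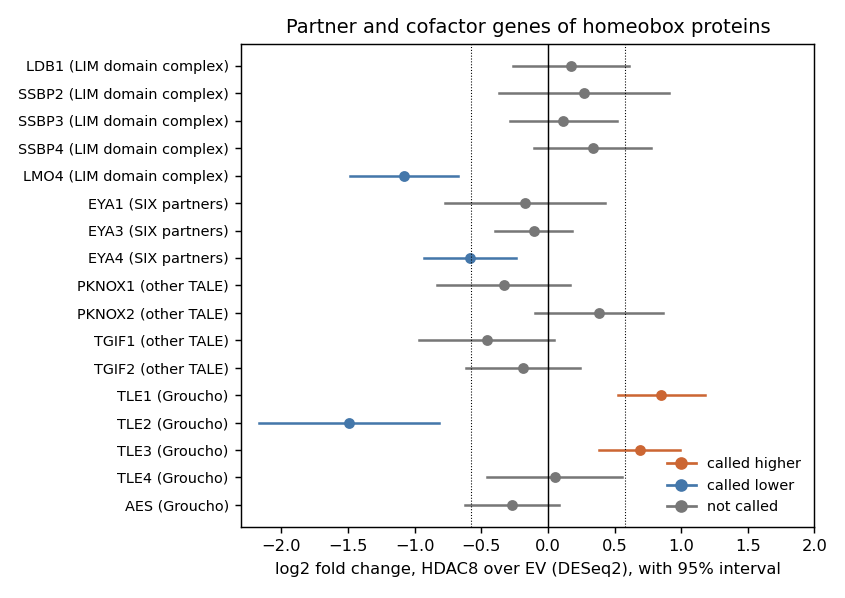
Log2 fold change of HDAC8 over EV from DESeq2, with its 95% interval, for partner and cofactor genes with a mean of at least 50 normalized counts, named with their group. TLE1 and TLE3 lie above 0.58, TLE2, LMO4 and EYA4 lie below -0.58, and the other genes were not called.

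Among transcripts named after a homeobox gene as antisense or host, 12 were found and 6 tested. EMX2OS was called higher. DLX6-AS1, DLX2-DT, LHX1-DT, MEIS1-AS2 and MEIS1-AS3 were not called, and the last 4 of these did not exceed 32.5 normalized counts in any library.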

How the data were processed

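RNA-seq was analysed from a table of expected counts, which the authors made by trimming paired-end reads with Trimmomatic, aligning them to the transcriptome with STAR and estimating reads per gene with RSEM. The deposited expected counts are not scaled between libraries. Genome build, annotation, strand setting and removal of duplicate reads are not given in the sources used here. An expected count shares a read among the genes it could come from, so near-identical copies and overlapping genes are uncertain. Expected counts were rounded to whole numbers.

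HDAC8 was compared with EV over all 26162 genes with a total of at least 10 counts with DESeq2 1.42.0 (R 4.3.3), using a two-sided Wald test without covariates, size factors of DESeq2 between 0.918 and 1.17, and Benjamini-Hochberg adjustment. The thresholds follow the study's methods section. The legend of its RNA-seq figure instead gives an unadjusted p under 0.05 with the same fold minimum. A normalized count is the count divided by the size factor. The floor for no reads was 3 counts per library, and lower bounds on a fold use the largest such floor in the silent group. Intervals are at 95%. Positions and exon lengths came from GENCODE 44 (GRCh38), where the 72 genes described were found, and may differ from the authors' build. Promoters came from RefSeq (GRCh38.p14).

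The symbol rule takes 6 further genes that are not reported here. They enter no count over homeobox genes, while the fit and the counts over all genes include them. Named genes are those called, the highest gene per kilobase in each of 14 families, up to 5 not called whose log2 fold change reached 1 in either direction, called partner genes, and antisense or host transcripts with at least 10 counts. Other genes are named to account for every member or because their groups did not overlap, and were picked after their values were seen. Members, lists and tests were chosen with earlier results of these data known. The partner list held LIM complex, EYA and DACH, TALE and Groucho genes. Alternatives were edgeR 4.0.16, limma 3.58.1 with voom, other size factors and filters, a replicate block, a test against the fold minimum, an unadjusted p, each library left out in turn and, added after seeing the data, a mean of at least 50 normalized counts. The fits were also run on simulated data, with changes put only into genes with a mean of at least 50 normalized counts. Weaker genes and changes near the fold minimum were not covered by it. Chi-square per degree of freedom between replicates was 25.99 to 153.38, above counting noise, so each was used as a separate library. The highest values were those of HDAC8 replicate 1, at 153.38 against replicate 2 and 101.67 against replicate 3. HDAC8 replicates 2 and 3 gave 25.99, and the EV pairs 39 to 47.32.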

Additional observations from a re-analysis of the deposited data

How the results depend on the processing

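The 4 homeobox genes called higher were also 4 with edgeR, limma-voom and the other size factors. They became 3 with the replicate block (PBX3 lost), 2 with the test against the fold minimum (LHX6 and PBX3 lost), 6 with an unadjusted p (IRX1 and NKX3-2 gained) and 3 to 4 without each library in turn, PBX3 being lost without EV replicate 1, 2 or 3 or HDAC8 replicate 3. The filter of at least 10 counts in every library also gave 4, since it removed EMX2 by construction and gained NKX3-2. Calls of lower genes numbered 2 with an unadjusted p (LHX4 and OTX1) and 0 to 1 without each library in turn (ALX4, without HDAC8 replicate 1). Over all genes, 1170 higher and 1143 lower became 292 and 291 with the test against the fold minimum, 1839 and 1856 with an unadjusted p, and 877 to 1218 and 746 to 1378 without each library in turn, the lowest number of lower genes being without EV replicate 3. The partner genes, 2 higher and 3 lower, became 0 and 0 with the test against the fold minimum, and the lower ones 2 with total-count size factors and 2 to 3 without each library in turn (EYA4 lost). Without each library in turn the log2 fold change ran from -0.18 to 0.029 for LHX8, -0.19 to 0.014 for MEIS2 and -0.00197 to 0.35 for POU3F2, turning direction without HDAC8 replicate 3. These 3 genes were not called in any alternative, and the cause was not tested. Of 288 values for 21 named homeobox genes, 278 kept their direction and side of the threshold. Replicate numbers did not pair the libraries (correlations of same-numbered deviations -0.0273, -0.0663 and 0.0399 over 14451 genes), so the block shows no pairing. Scaling by total counts moved the median log2 fold change of all genes to 0.04 and that of the homeobox genes to 0.14. The median standard error was 2.15 for homeobox genes under a mean of 50 normalized counts and 0.35 for the others tested. No fit varied depth, so its part was not tested.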
